A study of Mus musculus with 12 samples.

Results

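The HoxC cluster is a row of 9 homeobox genes on mouse chromosome 15, Hoxc4, Hoxc5, Hoxc6, Hoxc8, Hoxc9, Hoxc10, Hoxc11, Hoxc12 and Hoxc13. All 9 were found by symbol among the 55401 genes of every count file, and they are described here in mouse totipotent potential stem (TPS) cells and extended pluripotent stem (EPS) cells. The RNA-seq data came from 3 TPS lines and 3 EPS lines, and each line was sequenced as 2 technical replicates, so that there were 12 libraries. Counts of the technical replicates were summed, and a line was the unit of every comparison. Both cell types grew on feeder cells, which the study's methods describe as mouse embryonic fibroblasts inactivated with mitomycin C. The labels call the TPS medium VCED, whereas the methods describe a cocktail of CD1530 (a retinoic acid receptor gamma agonist), VPA (a histone deacetylase inhibitor), EPZ004777 (a DOT1L inhibitor) and CHIR-99021 (a GSK3 inhibitor). EPS cells were kept in LCDM medium, which holds human LIF, CHIR-99021, (S)-(+)-dimethindene maleate and minocycline hydrochloride. CHIR-99021 is thus listed for both the cocktail and LCDM, and the sources do not say whether VCED is that cocktail. No genetic change is given for any line, and the sources do not say from which cells each TPS line was made or that lines were independent derivations, so p-values measure the spread between these lines.

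Hox genes encode transcription factors that bind DNA through the homeodomain, and they give cells their position along the body axis. Within a cluster they lie in the order in which they are switched on during development, with the anterior genes (low numbers) at one end and the posterior genes (high numbers) at the other. In pluripotent cells the clusters are known to be held silent by Polycomb proteins, and retinoic acid, Wnt signals and CDX factors are known to open them from the anterior end. Cultured fibroblasts keep a Hox pattern that reflects the body site they came from.

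All 9 genes were annotated on the plus strand of GRCm38, and the cluster spanned chr15:102921103-103036852, which is 115.8 kb, from Hoxc13 to Hoxc4. Transcription therefore ran from the posterior towards the anterior end. Hoxc13 was at chr15:102921103-102928814, Hoxc12 at chr15:102936757-102938609, Hoxc11 at chr15:102954427-102957708, Hoxc10 at chr15:102966796-102971893 and Hoxc9 at chr15:102976439-102985099. Hoxc8 was at chr15:102990607-102994111, Hoxc6 at chr15:102998257-103011881, Hoxc5 at chr15:102967443-103017429 and Hoxc4 at chr15:103018934-103036852. The long span of Hoxc5 came from a second transcript, whose first exon (chr15:102967443-102967608, 166 bases) lies inside an exon of Hoxc10. It was the only exon that members shared, and how reads there were counted is not given in the sources used here.

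The members are alike in the homeobox and differ elsewhere. The stretches printed here encode residues 42 to 58 of the 60-residue homeodomain in 4 members that the results turn on, read 5′ to 3′ from the GENCODE M21 transcripts. Capitals mark the codons of residues 48 to 53, part of the helix that enters the major groove of DNA, whose amino acids these genes share.
Hoxc6: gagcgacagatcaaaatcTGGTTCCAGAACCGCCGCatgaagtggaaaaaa
Hoxc8: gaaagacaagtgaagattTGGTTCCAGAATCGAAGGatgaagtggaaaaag
Hoxc12: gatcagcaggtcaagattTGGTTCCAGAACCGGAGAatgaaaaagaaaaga
Hoxc13: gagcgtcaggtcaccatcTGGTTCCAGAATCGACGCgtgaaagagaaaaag

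Over the 180 bases of the homeobox, identity between members ran from 48.3% (Hoxc5 and Hoxc13) to 77.8% (Hoxc5 and Hoxc6), and it was 62.2% for Hoxc12 and Hoxc13. Apart from Hoxc5 and Hoxc10, which had an identical run of 168 bases that takes in the shared exon, the longest identical run between a member and any other Hox transcript was 50 bases, between Hoxc9 and Hoxb9. The other runs were at most 31 bases, against reads of 100 bases.

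Each library held between 13676051 and 21821707 counts, and each line between 29877215 and 38466294. The summed level of 6 markers of the 2-cell stage, the Zscan4 group among them, was 155 to 203 CPM (counts per 1000000, scaled by the TMM factors of edgeR) in the TPS lines and at most 0.0979 CPM in the EPS lines. The summed level of 6 pluripotency markers was 1610 to 1940 CPM in the TPS lines and 3150 to 3970 CPM in the EPS lines. Of these, 3 were called lower in TPS (Klf4, Esrrb and Pou5f1), and Nanog, Sox2 and Zfp42 were not called. The labelled cell types thus had the markers that go with their names, and the libraries also held RNA of fibroblast marker genes, whose source (feeder cells or cells of the lines) was not tested. The summed level of 16 fibroblast markers, collagens among them, was 6040, 3400 and 3490 CPM in TPS lines 1, 2 and 3 and 324, 1280 and 1350 CPM in EPS lines 1, 2 and 3. EPS line 1 stood apart with the lowest summed level of these markers. Fap alone among these markers was at 0 counts in EPS line 1, and it was at 0.0589 and 0.313 CPM in EPS lines 2 and 3. Its level was low in TPS lines 1 to 3 as well (4.92, 1.68 and 3.59 CPM). The other markers had counts in every EPS line. Col1a1, for example, was at 79.4, 433 and 378 CPM and Twist1 at 2.51, 4.65 and 4.87 CPM in EPS lines 1 to 3. Of the 16 markers, 11 were higher in TPS and none was lower, where 14.4% of all tested genes were higher and 7.34% lower. Their median log2 fold change was 2.10, and in bulk RNA fewer cells of a type and less RNA per cell cannot be told apart.

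The cluster was split between the cell types. Hoxc5, Hoxc6, Hoxc8, Hoxc9 and Hoxc10, the genes of its middle, were higher in TPS than in EPS. Hoxc12 and Hoxc13, at the posterior end, were lower in TPS. Hoxc4, the most anterior member, did not pass the test, and Hoxc11 had too few counts to pass the filter on low counts. The fits that did include Hoxc11, by DESeq2 and without the filter, did not call it. By edgeR's quasi-likelihood test with Benjamini-Hochberg adjustment over all 17468 genes tested, 5 of the 8 tested members were called higher, where 14.4% of all genes were, and 2 were called lower, where 7.34% of all genes were. The median log2 fold change of the 8 members was 1.79, and that of all genes tested was -0.00376. The lines of TPS lay above all lines of EPS for the same 5 genes, where 23.6% of all genes did so, and below for the same 2, where 19.1% did. The calls depended on single lines, and so did those of all genes, which fell from 2509 higher and 1282 lower to between 1617 and 2234 higher and between 493 and 1047 lower with a line left out. The count of higher members was 2 without TPS line 1, EPS line 1 or EPS line 2 and 3 without TPS line 3, and the count of lower members was 0 without any of these and 1 without EPS line 3, while the direction of each stayed the same.

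**Figure D1:**
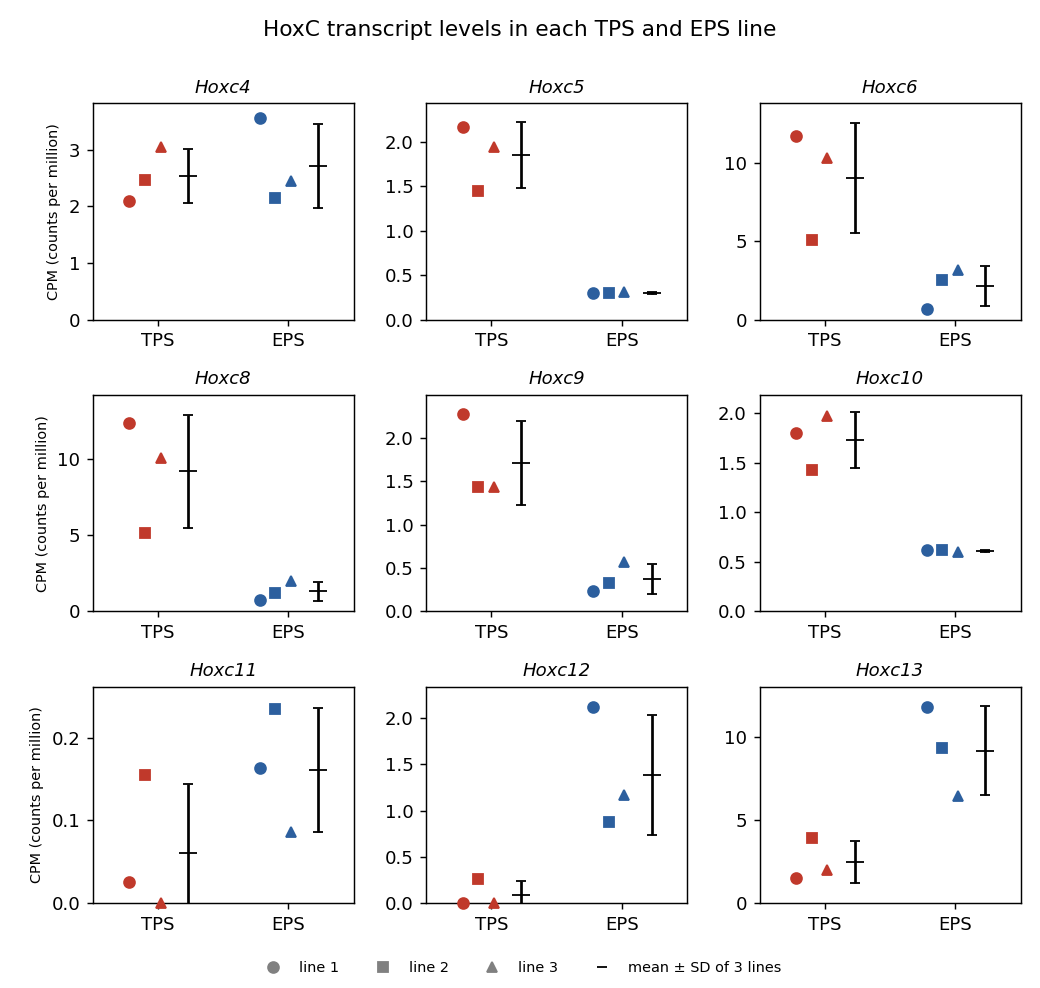
Level of each HoxC gene in CPM (y axis, linear, from 0) in the 3 TPS and the 3 EPS lines, with symbols for lines and the black bar giving mean ± SD. Hoxc5, Hoxc6, Hoxc8, Hoxc9 and Hoxc10 are higher in every TPS line, Hoxc12 and Hoxc13 are higher in every EPS line, and Hoxc4 and Hoxc11 overlap.

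Hoxc8, a gene of thoracic identity, had the largest fitted rise among the members. Its level was 12.4, 5.16 and 10.1 CPM in TPS lines 1, 2 and 3, and 0.751, 1.21 and 1.99 CPM in EPS lines 1, 2 and 3. All TPS lines lay above all EPS lines, with TPS line 2 the lowest of its group and EPS line 1 the lowest of all. The log2 fold change was 2.80 ± 0.485 (SE, n = 3 lines per group), or 6.97-fold, with an adjusted p of 0.00868 by edgeR. The raw counts behind it were 1014 in TPS and 134 in EPS. The value lay within the error of that of Hoxc5, which was the larger without EPS line 1 (2.57 against 2.50 for Hoxc8) and with technical replicate 1 alone (3.61 against 2.63).

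Hoxc6, the next gene towards the anterior end and also one of thoracic identity, was at a similar level. It reached 11.7, 5.05 and 10.3 CPM in TPS lines 1 to 3 and 0.686, 2.53 and 3.16 CPM in EPS lines 1 to 3. The order of lines was that of Hoxc8, with TPS line 2 less than 2 CPM above EPS line 3. The log2 fold change was 2.08 ± 0.577 (SE, 4.23-fold, adjusted p = 0.0394 by edgeR). The call was lost without TPS line 1, TPS line 3, EPS line 1 or EPS line 2, with adjusted p from 0.0531 to 0.105.

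Hoxc5, which lies between Hoxc6 and Hoxc4, was low but even within each group. Its level was 2.17, 1.45 and 1.94 CPM in TPS lines 1 to 3 and 0.294, 0.294 and 0.313 CPM in EPS lines 1 to 3, the latter from 9, 10 and 11 counts. The lowest TPS line was clear of the highest EPS line. The log2 fold change was 2.61 ± 0.379 (SE, 6.11-fold, adjusted p = 0.00502 by edgeR). Hoxc5 and Hoxc8 were the members that stayed called under all 16 alternative fits, left-out lines included.

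Hoxc9 marks the thoracic trunk. Its level was 2.27, 1.43 and 1.43 CPM in TPS lines 1 to 3 and 0.229, 0.324 and 0.569 CPM in EPS lines 1 to 3. TPS line 1 was the highest, and EPS line 1 was the lowest, as for Hoxc6 and Hoxc8. The log2 fold change was 2.18 ± 0.472 (SE, 4.52-fold, adjusted p = 0.0176 by edgeR), and the call was lost without TPS line 1, EPS line 1 or EPS line 2, with adjusted p from 0.0519 to 0.0634.

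Hoxc10, a gene of lumbar and hindlimb identity, was the most posterior member that was higher in TPS. Its level was 1.80, 1.43 and 1.97 CPM in TPS lines 1 to 3 and 0.620, 0.618 and 0.598 CPM in EPS lines 1 to 3. The EPS lines were nearly equal here, from 19, 21 and 21 counts. The log2 fold change was 1.49 ± 0.347 (SE, 2.82-fold, adjusted p = 0.0221 by edgeR), the smallest among the 5 higher members. The call was kept only when TPS line 2 was the line left out, and the adjusted p without each of the others ran from 0.0570 to 0.0835.

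Hoxc13, which acts in hair and nail formation, went the other way and was the leading HoxC gene of EPS cells. Its level was 11.8, 9.30 and 6.43 CPM in EPS lines 1 to 3 and 1.52, 3.89 and 2.00 CPM in TPS lines 1 to 3. All EPS lines lay above all TPS lines, and the order of the 6 lines was the reverse of that of Hoxc8, with EPS line 1 the highest and TPS line 1 the lowest. The log2 fold change was -1.89 ± 0.426 (SE, 3.71-fold lower in TPS, adjusted p = 0.0201 by edgeR). The call was lost without TPS line 1, TPS line 3, EPS line 1 or EPS line 2, with adjusted p from 0.0523 to 0.0701.

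Hoxc12, which lies beside Hoxc13, was almost without counts in TPS cells. It had 65, 30 and 41 counts in EPS lines 1 to 3, or 2.12, 0.883 and 1.17 CPM. In TPS it had 0 counts in lines 1 and 3, which allows a level of up to 0.0750 and 0.0953 CPM (3 counts per line), and 10 counts in line 2, or 0.259 CPM. These limits cover counting error only. TPS line 2 was thus the highest TPS line for both Hoxc12 and Hoxc13 and the lowest for Hoxc5, Hoxc6, Hoxc8 and Hoxc10. The mean level was 16.1 times higher in EPS, a ratio that rests on TPS line 2, without which the EPS mean was at least 14.6-fold higher than 3 counts per line, and the fitted log2 fold change was -3.91 ± 1.09 (SE, adjusted p = 0.0398 by edgeR), a value that depends on the prior count because of the lines at 0 and was -8.58 without TPS line 2. The call was kept only when TPS line 2 was the line left out, and the adjusted p without each of the others ran from 0.0691 to 0.101.

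Hoxc11 and Hoxc4 border these groups. Hoxc11, between Hoxc12 and Hoxc10, had 1, 6 and 0 counts in TPS lines 1 to 3 and 5, 8 and 3 counts in EPS lines 1 to 3. These ranges overlapped, and no difference was detectable at this depth. Hoxc4, at the anterior end, had 2.10, 2.46 and 3.05 CPM in TPS lines 1 to 3 and 3.56, 2.15 and 2.45 CPM in EPS lines 1 to 3. Its groups overlapped, with a log2 fold change of -0.10 (95% interval -0.89 to 0.69, adjusted p = 0.860 by edgeR), which leaves room for a change in either direction.

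**Figure D2:**
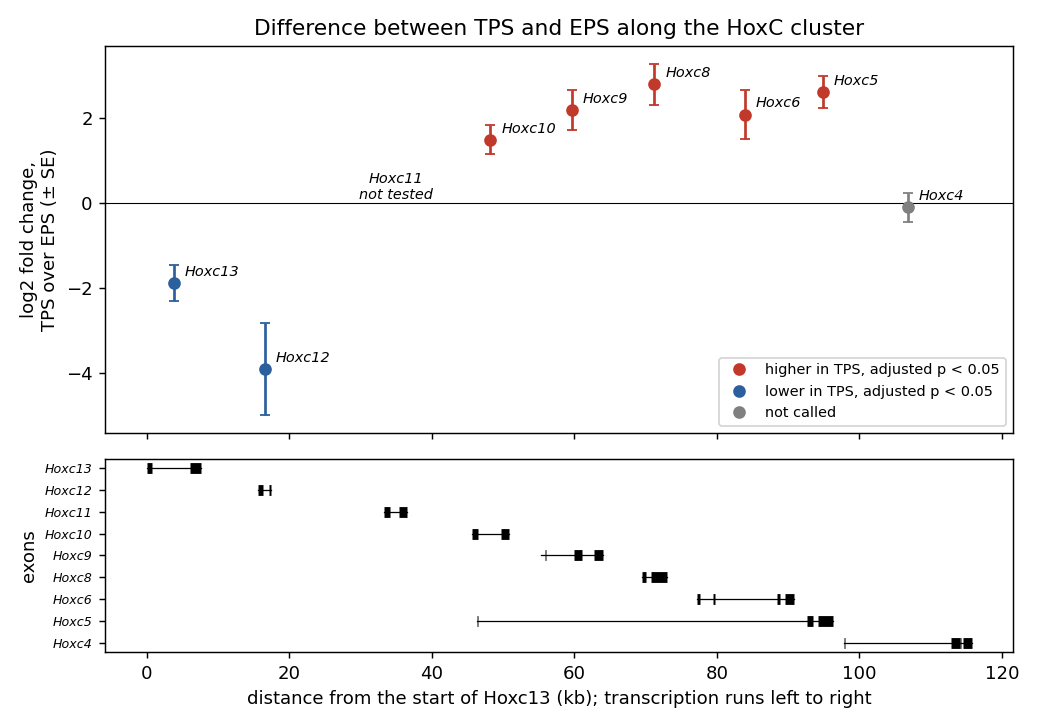
Log2 fold change of TPS over EPS ± SE (y axis, upper panel) for each tested HoxC gene against its distance from the start of Hoxc13 in kb, with exons as blocks in the lower panel and Hoxc5 placed at its last exon. The 2 genes nearest to the posterior end lie below 0, the 5 genes from Hoxc10 to Hoxc5 lie between 1.49 and 2.80, and Hoxc4 lies at -0.10.

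The order of levels within the cluster was compared as CPM per kb of merged exons. With the longest transcript as the length instead, Hoxc6 was at 5.70 in TPS, Hoxc4 passed Hoxc13 in TPS and Hoxc6 passed Hoxc4 in EPS. In TPS cells Hoxc6 (3.75 ± 1.46, SD, n = 3 lines) and Hoxc8 (3.26 ± 1.31) led, and their lines overlapped. Hoxc13 (1.00 ± 0.508), Hoxc4 (0.988 ± 0.187), Hoxc10 (0.907 ± 0.146), Hoxc9 (0.704 ± 0.201) and Hoxc5 (0.600 ± 0.119) followed, each overlapping the next. Hoxc12 (0.0838 ± 0.145) and Hoxc11 (0.0298 ± 0.0413) were lowest. The steps from Hoxc8 to Hoxc13 and from Hoxc5 to Hoxc12 were the only ones between neighbours in this order whose lines did not overlap.

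In EPS cells the order was led by Hoxc13 (3.73 ± 1.09 CPM per kb), whose lines lay above those of Hoxc12 (1.35 ± 0.630). Hoxc12, Hoxc4 (1.06 ± 0.289), Hoxc6 (0.883 ± 0.534), Hoxc8 (0.465 ± 0.222) and Hoxc10 (0.321 ± 0.00652) then followed with overlapping neighbours. Hoxc9 (0.154 ± 0.0723), Hoxc5 (0.0973 ± 0.00356) and Hoxc11 (0.0798 ± 0.0371) were lowest, and the step from Hoxc10 to Hoxc9 did not overlap. Hoxc4 thus stood near Hoxc13 in TPS and well under it in EPS while its own groups overlapped.

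The summed HoxC level was 34.1, 21.3 and 30.7 CPM in TPS lines 1 to 3 and 20.2, 17.5 and 16.8 CPM in EPS lines 1 to 3. Of the HoxC counts, Hoxc11, Hoxc12 and Hoxc13 together made up 4.55% (95% exact binomial interval 3.50 to 5.79), 20.2% (17.5 to 23.1) and 6.51% (5.04 to 8.26) in TPS lines 1 to 3. In EPS lines 1 to 3 they made up 69.6% (65.8 to 73.2), 59.4% (55.3 to 63.4) and 45.8% (41.8 to 50.0). Hoxc13 alone took 49.9% ± 10.3 (SD, n = 3 lines) in EPS and 9.76% ± 7.47 in TPS, whereas Hoxc6 and Hoxc8 took 30.6% ± 5.89 and 31.2% ± 6.31 in TPS and 12.2% ± 7.94 and 7.50% ± 4.13 in EPS. The intervals of these shares cover counting error only, since reads are not independent molecules, and the lines of a group differed by more than that. Shares are tied to each other, so a larger share of one gene lowers the others.

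**Figure D3:**
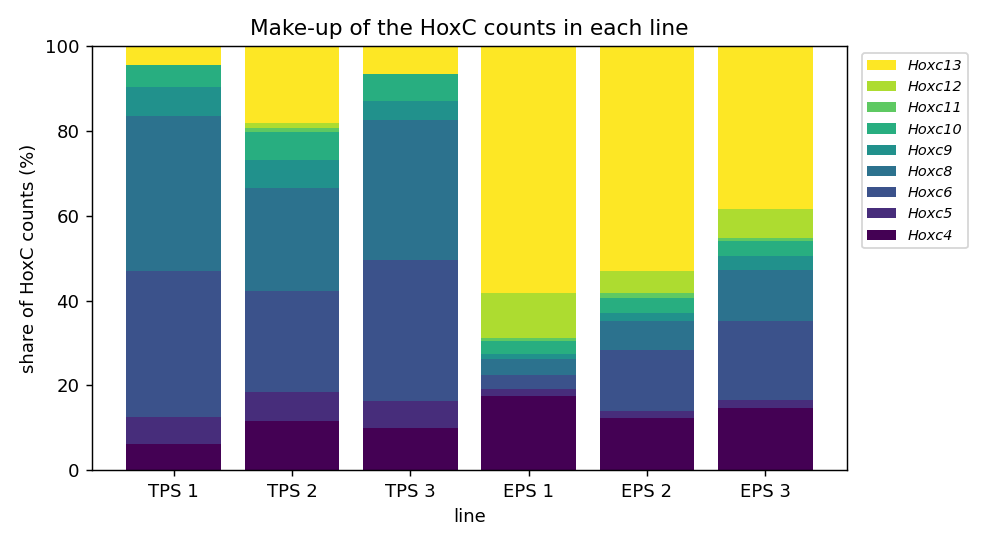
Share of each HoxC gene in the HoxC counts of a line (y axis, percent) for the 6 lines on the x axis, stacked from Hoxc4 at the bottom to Hoxc13 at the top. Hoxc6 and Hoxc8 are the largest shares in the TPS bars, Hoxc13 fills 38.4% to 58.3% of the EPS bars, and TPS line 2 has the largest Hoxc13 share of the TPS lines (18.3%).

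Technical replicates were compared by their counts. Of 51 pairs of technical replicates (a member in a line) with any count, 1 had an exact two-sided binomial p under 0.05, which was Hoxc8 in EPS line 1 with 16 and 7 counts (p = 0.00915). Low counts limit this check: Hoxc5 in EPS lines 1 to 3 had 3, 1 and 2 counts in technical replicate 1 and 6, 9 and 9 in technical replicate 2. Its log2 fold change was 3.61 with technical replicate 1 alone and 2.17 with technical replicate 2 alone.

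Hoxc6 and Hoxc8 had the same order of the 6 lines as the fibroblast sum. Hoxc5 and Hoxc10 were nearly level across the EPS lines, but from only 9 to 11 and 19 to 21 counts per line, so their order there is not resolved. Per 1000 CPM of the 16 fibroblast markers, Hoxc6 was at 1.94, 1.49 and 2.94 CPM in TPS lines 1 to 3 and at 2.11, 1.98 and 2.33 CPM in EPS lines 1 to 3. On this scale the means were 2.12 ± 0.742 in TPS and 2.14 ± 0.177 in EPS (SD, n = 3 lines). Hoxc8 was at 2.15 ± 0.688 and 1.58 ± 0.691, Hoxc9 at 0.401 ± 0.0225 and 0.460 ± 0.228, Hoxc5 at 0.447 ± 0.0991 and 0.456 ± 0.390, and Hoxc10 at 0.427 ± 0.133 and 0.946 ± 0.837 in TPS and EPS. So all 5 members called higher had overlapping groups on this scale, and none kept every TPS line above every EPS line, where 2.85% of all tested genes and 19.7% of the 2509 genes called higher did. Of the 18 other Hox genes called higher, 2 did so and 16 overlapped. Col1a1 alone made up 40.1% of the marker CPM over the 6 lines. The groups of single members were not compared on the scale without it, so their overlap may depend on that gene. For 2 of the 5 HoxC members the overlap rested on EPS line 1, in a check chosen after seeing the data. Without that line every TPS line lay above both other EPS lines for Hoxc5 (EPS mean 0.231) and Hoxc8 (EPS mean 1.21). Hoxc6 (2.16), Hoxc9 (0.337) and Hoxc10 (0.463) still overlapped. The share of all genes with every TPS line above in this check was not computed, so these 2 members have no background to be set against. TPS lines 2 and 3 had like fibroblast sums of 3400 and 3490 CPM but 5.05 and 10.3 CPM of Hoxc6, while Hoxc9 was at 1.43 CPM in both. Of the 16 fibroblast markers, 11 were higher in TPS line 3 than in TPS line 2, such as Dcn (205 and 42.8 CPM) and Prrx1 (87.3 and 40.9 CPM), and 5 were lower, such as Col1a1 (1390 and 1740 CPM) and Twist1 (12.6 and 14.9 CPM). The part of fibroblasts in the rise of these 5 members was not tested.

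Hoxc13 ran in the opposite order to the fibroblast sum. It was lowest in TPS line 1, which had the highest fibroblast sum, and highest in EPS line 1, which had the lowest. Per 1000 CPM of fibroblast markers it was at 0.252, 1.14 and 0.573 CPM in TPS lines 1 to 3 and at 36.3, 7.29 and 4.75 CPM in EPS lines 1 to 3. Hoxc4 was at 0.648 ± 0.271 in TPS and 4.82 ± 5.33 in EPS (SD, n = 3 lines), with all TPS lines below all EPS lines on this scale. Without EPS line 1 the EPS means were 1.75 for Hoxc4, 0.777 for Hoxc12 and 6.02 for Hoxc13, and the TPS lines stayed below. The share of all genes without EPS line 1 was not computed. With all lines included such an order is common here. Of all tested genes, 75.9% had every TPS line below every EPS line on this scale, all 1282 genes called lower among them.

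**Figure D4:**
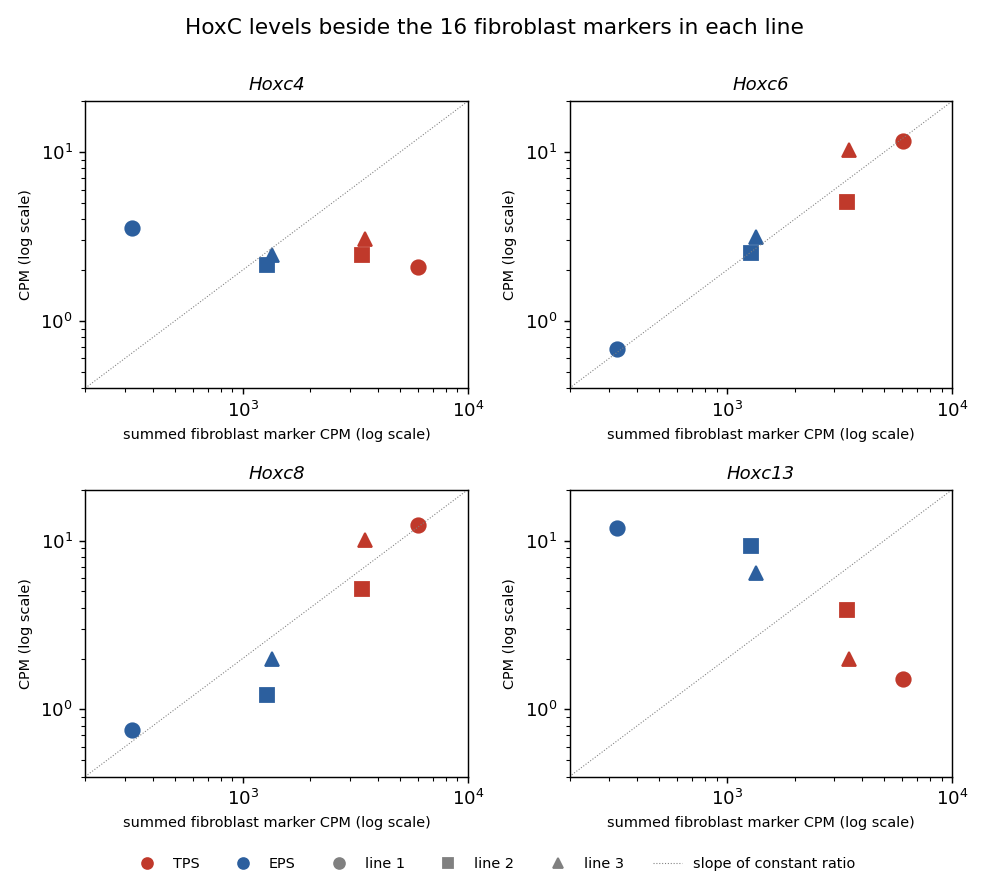
CPM of Hoxc4, Hoxc6, Hoxc8 and Hoxc13 (y axes, log scale) against the summed CPM of the 16 fibroblast markers (x axes, log scale) in the 6 lines, with a dotted line at a constant ratio of 2 per 1000. Hoxc6 and Hoxc8 rise with the fibroblast markers from EPS line 1 to TPS line 1, Hoxc13 falls from EPS line 1 to TPS line 1, and Hoxc4 stays between 2.10 and 3.56 CPM.

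The other Hox clusters were compared to see where HoxC differed from them. Of all tested genes, 14.4% were higher in TPS and 7.34% lower. Of 11 HoxA genes, 7 were tested and 6 were higher in TPS. All 9 tested of 10 HoxB genes were higher, and 3 of 4 tested of 9 HoxD genes. None of these 20 genes was called lower, against 2 of 8 for HoxC, and their median log2 fold changes were 3.54 (HoxA), 2.88 (HoxB) and 2.56 (HoxD), against 1.79 for HoxC. The difference between clusters was not tested. The largest changes were those of Hoxb1 (6.26 ± 1.29, SE, adjusted p = 0.0152 by edgeR), a hindbrain gene, and of Hoxa5 (3.92 ± 0.591, adjusted p = 0.00576).

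Paralogs of group 13, which specify the posterior end of the body, differed in the sign of their log2 fold change. It was -1.89 for Hoxc13, 2.51 ± 0.562 (SE, adjusted p = 0.0195 by edgeR) for Hoxb13, 1.70 ± 0.756 (adjusted p = 0.145) for Hoxd13 and 1.11 ± 1.05 (adjusted p = 0.484) for Hoxa13. Hoxb13 was thus called in the direction opposite to that of Hoxc13. Hoxd12, the paralog of Hoxc12, had 2 counts in all libraries and was not tested. In group 4, Hoxb4 was higher in TPS (2.76 ± 0.590, adjusted p = 0.0168 by edgeR), whereas Hoxc4 did not pass the test. Hoxa4 (mean 0.878 CPM in TPS and 0.06 CPM in EPS) and Hoxd4 (0.27 and 0.0947 CPM) were not tested.

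HoxC made up most of the Hox counts of EPS cells. Its share was 73.7% (95% exact binomial interval 70.6 to 76.6), 60.7% (57.6 to 63.8) and 54.4% (51.4 to 57.4) in EPS lines 1 to 3. In TPS lines 1 to 3 it was 40.7% (39 to 42.4), 20% (18.8 to 21.3) and 23.3% (22 to 24.6). These intervals too cover counting error only, and lines of a group differed by more. The groups did not overlap, and the total of Hox counts was 840 to 1082 in EPS lines and 3351 to 4148 in TPS lines.

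**Figure D5:**
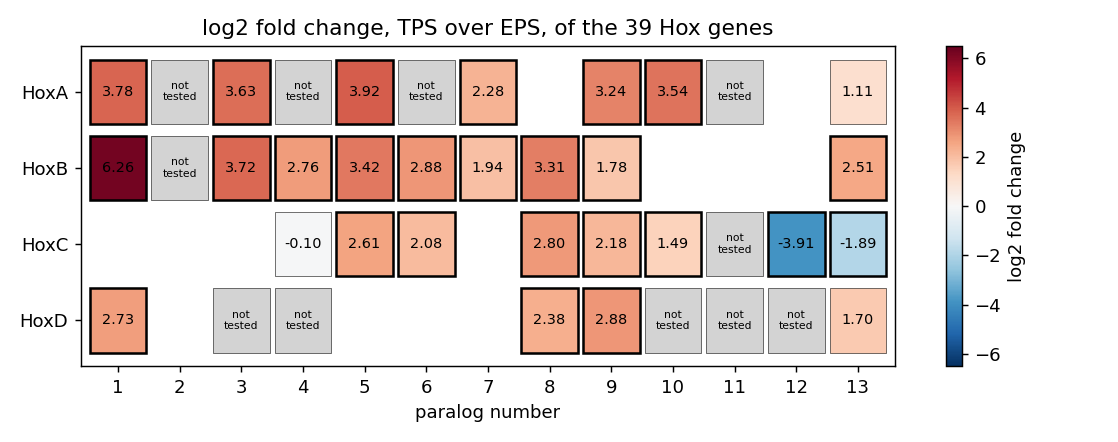
Log2 fold change of TPS over EPS for the 39 Hox genes by cluster (rows) and paralog number (x axis), with thick borders for an adjusted p under 0.05 and grey for genes not tested. Every called gene of HoxA, HoxB and HoxD is higher in TPS, and Hoxc12 and Hoxc13 are the called genes that are lower.

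Genes that act with or upstream of Hox genes were counted in the same fit, where 14.4% of all tested genes were higher and 7.34% lower. Of 9 cofactors, the TALE proteins that bind DNA beside Hox proteins, 5 were higher and none was lower, led by Meis2 (2.84 ± 0.484, SE, adjusted p = 0.00821 by edgeR) and Meis1 (1.84 ± 0.430, adjusted p = 0.0227). Of 7 activators of the clusters, 6 were tested, 3 were higher and 1 was lower. The homeobox factors Cdx2 (4.21 ± 1.22, adjusted p = 0.0448) and Cdx1 (2.93 ± 0.457, adjusted p = 0.00632) were higher, and Kmt2b, a histone H3 lysine methyltransferase, was lower (-0.66 ± 0.130, adjusted p = 0.0133). Gdf11 was also higher (2.10 ± 0.304, adjusted p = 0.005). Within TPS, Cdx1 was at 28.0, 81.3 and 100 CPM and Cdx2 at 0.675, 3.65 and 9.37 CPM in lines 1 to 3. Both were lowest in line 1, where Hoxc6, Hoxc8 and Hoxc9 were highest. Gdf11, at 14.4, 8.29 and 12.5 CPM, was highest in line 1. The part of these activators in the HoxC values was not tested.

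Of 8 genes that respond to retinoic acid, 7 were higher in TPS and none was lower, with a median log2 fold change of 3.96, or 3.45 with Rarb at its bound. Rarb, a retinoic acid receptor, was at 1.00 ± 0.0835 CPM in TPS (SD, n = 3 lines) and at 0 counts in all EPS lines, so it was at least 10.2-fold higher in TPS, computed against 3 counts per line. Stra8, a gene induced by retinoic acid, was higher by 7.98 ± 0.422 on the log2 scale (SE, adjusted p = 0.000152 by edgeR). Of 16 Polycomb genes, 3 were higher and 4 were lower with a median of -0.14. The shares over all tested genes, for both lists, were 14.4% higher and 7.34% lower. Cbx8, a subunit of the PRC1 complex, was higher (1.66 ± 0.467, adjusted p = 0.0411). Eed (-0.71 ± 0.180, adjusted p = 0.0301) and Ezh1 (-0.59 ± 0.167, adjusted p = 0.0409), subunits of the PRC2 complex, were lower.

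Other tissues in which HoxC genes act were checked by their markers, beside shares over all tested genes of 14.4% higher and 7.34% lower. Of 8 presomitic mesoderm genes, 6 were tested and 2 were higher, Meox1 (4.17 ± 0.942, SE, adjusted p = 0.0201 by edgeR) and Foxc2 (2.03 ± 0.605, adjusted p = 0.0489). Their summed level was 7.67 to 44.3 CPM in TPS lines and 16.8 to 20.1 CPM in EPS lines, with Msgn1, Hes7 and Meox1 at 0 in EPS line 1. Of 6 limb and lateral plate genes, 3 were higher, led by Pitx1 (3.89 ± 0.971, adjusted p = 0.0282) and Tbx4 (2.24 ± 0.524, adjusted p = 0.0225). Fgf10 was lower (-1.54 ± 0.410, adjusted p = 0.0348), and the summed level was 15.3 to 53.7 CPM in TPS and 18 to 57.2 CPM in EPS. Much of this sum was Grem1, which was not called (6.32 to 45.9 CPM in TPS and 7.90 to 50.3 CPM in EPS). Of 8 neural genes, 5 were tested, Tubb3 was higher (1.20 ± 0.348, adjusted p = 0.0447) and Olig2 was lower (-3.50 ± 0.777, adjusted p = 0.0190). The summed level of the neural genes was 35 to 66.8 CPM in TPS and 62.4 to 105 CPM in EPS, most of it from Tubb3 and Olig2. Chat was at 0 in 5 lines. The part of these cells in the HoxC values was not tested.

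The annotation held 7 further genes between Hoxc13 and Hoxc4, and all were at or near 0. Hotair, a long noncoding RNA on the minus strand between Hoxc12 and Hoxc11 (chr15:102944062-102947730), had 5 counts in all, each of them in EPS line 2. Gm28011, annotated as a miscellaneous RNA, had 1 count in EPS line 1. Gm27337, Gm27443 and Gm27535, of the same kind, and the microRNA genes Mir196a-2 and Mir615 had none, although libraries made from polyadenylated RNA need not hold microRNA precursors.

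Mir196a-2 lies between Hoxc10 and Hoxc9, and its product miR-196a-5p is known to act on Hoxc8. The mature sequence (RefSeq, GRCm38.p6, plus strand, chr15:102973365-102973386) is printed with its seed, bases 2 to 8, in capitals. It stands beside the places in the Hoxc8 3′ UTR that match the seed, where capitals mark the match.
mmu-miR-196a-5p: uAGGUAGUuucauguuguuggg
Hoxc8 first match: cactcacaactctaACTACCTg
Hoxc8 second match: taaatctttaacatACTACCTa

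No other member had this match (ACTACCT, searched on the transcript strand), and 6.81% of 21104 mouse 3′ UTRs, with a median of 1086 bases, held one. The 3′ UTR of Hoxc8 had 966 bases. The level of the microRNA was not measured in these libraries.

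Within 200 kb on either side of the cluster lay 11 further genes, and 3 of them were tested. Smug1, a uracil DNA glycosylase at chr15:103153290-103167092, was at 12.3, 15.8 and 9.41 CPM in TPS lines 1 to 3 and 22.5, 21.3 and 22.1 CPM in EPS lines 1 to 3. It was lower in TPS, with a log2 fold change of -0.81 ± 0.222 (SE, adjusted p = 0.0379 by edgeR). Cbx5, which encodes heterochromatin protein HP1 alpha, was lower as well (-0.53 ± 0.137, adjusted p = 0.0329). Both lie beyond the Hoxc4 end. Calcoco1, beyond the Hoxc13 end, did not pass the test (-0.34 ± 0.140, adjusted p = 0.126). The other 8 had at most 5 counts over all libraries.

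Among tested genes outside the Hox clusters, those whose levels ran most like the mean of the 8 tested members were Abhd5, Prdx6, Runx3, Rab33b and Fap. Pearson's r of log2(CPM + 1) was 0.998 for Abhd5, 0.997 for Prdx6, Runx3 and Rab33b, and 0.996 for Fap. These values are descriptions over 6 lines that fall into the groups compared, among many genes, and the mean is set by the members with the largest range. Fap also stands in the fibroblast list, with 4.92, 1.68 and 3.59 CPM in TPS lines 1 to 3 and 0, 0.0589 and 0.313 CPM in EPS lines 1 to 3.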

How the data were processed

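RNA from 3 TPS and 3 EPS lines was sequenced in 2 technical replicates each, as paired-end libraries from polyadenylated RNA. The authors mapped reads to mm10 with STAR 2.7.3a (fastp 0.19.7 is also in the submitters' processing notes) and deposited raw counts per gene without normalization. The counting tool, annotation release and strand setting are not given in the sources used here. Of 55401 gene identifiers, 55141 matched GENCODE M21 (GRCm38) without version.

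Technical replicates were summed per line. The test was edgeR 4.0.16 (R 4.3.3), quasi-likelihood, with TMM factors and filterByExpr (minimum count 10, total 15), which left 17468 genes, and Benjamini-Hochberg adjustment at 0.05. CPM are counts per 1000000 of the tested counts times the TMM factor. The script was tested on simulated data. DESeq2 1.42.0 was an alternative. Named genes were all members, genes inside the cluster, called neighbours within 200 kb and the 2 largest called changes per list and direction. The 5 genes outside the Hox clusters most like the members (mean of at least 1 CPM) were named too. The further fibroblast markers Dcn, Prrx1, Col1a1 and Twist1, the list genes Gdf11 and Grem1, and the paralogs of groups 4, 12 and 13 were named after their values were seen. Members and lists were chosen with earlier results of these data known. A list gene and a sequence that these rules would name are not reported here.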

Additional observations from a re-analysis of the deposited data

How the results depend on the processing

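The 7 called members were refitted under 16 alternatives, which gave 111 values, since Hoxc12 did not pass a filter of 1 CPM in 3 lines. All 111 kept their direction and 84 stayed called at an adjusted p under 0.05. DESeq2, RLE factors, upper quartile factors, library size only, no filter and the 12 libraries as separate samples kept all 7 calls. Technical replicate 1 alone left 3 members higher, and the filter of 1 CPM left 1 lower. Calls over all genes fell too, from 2509 higher and 1282 lower in the main fit. They were 2000 and 1029 with technical replicate 1 alone, and 2068 and 1101 with the filter of 1 CPM. A threshold of 0.01 left 2 higher and 0 lower, with no count over all genes to set beside it. Leaving out a line left 2 to 5 higher and 0 to 2 lower. The line number as a replicate block left 2 higher (Hoxc5 and Hoxc8) and 1 lower (Hoxc13), and 1714 higher and 721 lower over all genes. The sources do not say whether the numbers pair TPS with EPS lines. Deviations of same-numbered lines correlated at 0.024, -0.116 and 0.042, and those of the other pairs at -0.244 to 0.231. These values cannot show whether any lines share an origin. Hoxc4, which was not called, changed sign to 0.0558 with library size only, and ran from -0.261 to 0.115 with a line left out (above 0 without TPS line 1 or EPS line 1). Library size only moved the median of all genes to 0.144. With the longest transcript in place of merged exons Hoxc6 was at 5.70 CPM per kb in TPS and 1.34 in EPS, Hoxc4 at 1.20 and 1.28, and Hoxc5 in EPS at 0.103, which put Hoxc4 above Hoxc13 in TPS and Hoxc6 above Hoxc4 in EPS. Without Col1a1, the most abundant fibroblast marker, HoxC per 1000 fibroblast CPM rose from 6.90 to 12.2 in TPS and from 29.5 to 40.2 in EPS, where EPS line 1 carried the mean (62.3, 13.7 and 12.4 in EPS lines 1 to 3, and 82.5, 20.8 and 17.2 without Col1a1). The cause of these shifts was not tested. Hoxc11, and Hoxc12 in TPS, were limited by depth.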
